A study of Mus musculus with 13 samples.

Results

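Immediate early genes were described in the livers of 13 mice: Fos, Jun, Junb, Egr1, Ier2, Ier3, Btg2, Zfp36, Dusp1 and Myc. They were taken as every non-control array probe named for 1 of these 10 genes, which gave 17 probes of 41174. All 10 were among the 20389 genes that could be tested. Each of the 17 probes was well above background on all 13 arrays, and none was saturated. The mice were male, of C57BL/6 background, and all of them ate a western-style diet high in fat for 5 months, so the diet is shared by every group. Wild-type mice (WT, n = 5) had the "WT SIRT1" genotype. Mice labelled TAKI (n = 5) carried the "SIRT1 TA KI allele", a knock-in of alanine for threonine 522, which can no longer be phosphorylated. Mice labelled TEKI (n = 3) carried the "SIRT1 TE KI allele", with glutamate at the same place. SIRT1 is a protein deacetylase that uses NAD. Zygosity and age are not given in the sources used here, and there was no group on another diet among the 13 samples.

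Immediate early genes are transcribed soon after a cell meets a growth factor, hormone or stress, without the need for new protein. Kinase cascades act on factors already in place, such as SRF with its ELK partners at the serum response element (CArG box) and CREB at the cyclic AMP response element, and the resulting mRNAs decay quickly. In liver the class is known for its rapid rise after partial hepatectomy, in the acute phase response and after a change in feeding. Several products are transcription factors (Fos, Jun, Junb, Egr1, Myc), and others restrain growth or signalling (Btg2, Dusp1, Zfp36) or act in cell survival (Ier3).

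Each mouse was measured on 1 array, and a level below is the log2 intensity of a gene's brightest probe relative to the 75th percentile of its array, so levels of different genes are not compared. A total of 59.8% to 72.6% of probes were well above background on 12 arrays, and 86.3% on the array of TEKI replicate 1, where the scanner software called 89 spots non-uniform (1 to 6 elsewhere). Of the 5 slides used, slides 4 and 5 held TAKI alone, so TAKI and slide cannot be told apart. The TEKI arrays were on slide 3 together with WT replicate 5, and the other WT arrays were on slides 1 (replicates 1, 2 and 4) and 2 (replicate 3). The 7 hepatocyte markers tested, with Alb and Hnf4a among them, were well above background on all 13 arrays. In whole-liver RNA, fewer cells of a type and less RNA per cell cannot be told apart.

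The start of the promoter is shown for 6 of these genes. Fos, Btg2 and Ier3 moved together below, the brightest probe of Junb moved the other way, and Dusp1 and Zfp36 are feedback genes. Whether the response elements have a part in this movement was not tested. Sequences are from RefSeq (GRCm38.p6), 5′ to 3′ on the strand of the gene, and give the 200 bases before the annotated start, whose own base is counted as 0. Capitals mark the cyclic AMP response element TGACGTCA, its TGACG core where that stands alone, and the CArG box.
Fos: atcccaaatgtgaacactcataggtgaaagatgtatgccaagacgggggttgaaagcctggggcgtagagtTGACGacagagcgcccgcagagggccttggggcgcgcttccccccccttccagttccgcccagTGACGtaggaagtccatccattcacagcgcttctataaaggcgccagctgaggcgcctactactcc
Btg2: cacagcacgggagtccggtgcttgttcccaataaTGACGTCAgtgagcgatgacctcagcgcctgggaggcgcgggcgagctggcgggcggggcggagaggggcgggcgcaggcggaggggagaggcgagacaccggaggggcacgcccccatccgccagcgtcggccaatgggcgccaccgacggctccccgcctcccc
Ier3: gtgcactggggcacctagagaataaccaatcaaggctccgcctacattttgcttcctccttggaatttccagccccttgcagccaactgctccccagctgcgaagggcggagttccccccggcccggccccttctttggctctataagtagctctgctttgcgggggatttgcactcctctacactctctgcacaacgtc
Junb: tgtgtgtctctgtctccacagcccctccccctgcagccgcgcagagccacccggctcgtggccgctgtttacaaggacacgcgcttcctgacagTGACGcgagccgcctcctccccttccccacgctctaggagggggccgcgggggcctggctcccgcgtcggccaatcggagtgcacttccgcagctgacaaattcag
Dusp1: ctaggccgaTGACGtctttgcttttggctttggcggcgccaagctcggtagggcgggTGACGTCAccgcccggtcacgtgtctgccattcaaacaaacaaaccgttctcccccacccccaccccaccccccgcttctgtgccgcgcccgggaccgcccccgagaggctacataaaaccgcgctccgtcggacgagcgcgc
Zfp36: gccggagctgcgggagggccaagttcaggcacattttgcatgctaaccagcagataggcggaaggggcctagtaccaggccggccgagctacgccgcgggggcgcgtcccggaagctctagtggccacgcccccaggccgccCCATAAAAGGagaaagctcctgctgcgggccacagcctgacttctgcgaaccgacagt
They lie at chr12:85473690-85473889 (plus strand) for Fos, chr1:134079156-134079355 (minus strand) for Btg2 and chr17:35821513-35821712 (plus strand) for Ier3. Junb is at chr8:84978749-84978948, Dusp1 at chr17:26508473-26508672 and Zfp36 at chr7:28379229-28379428, all on the minus strand. Promoters of 7 of the 10 genes were matched by symbol, from 250 bases before to 50 after the start, and were searched on both strands. None was matched for Egr1, Ier2 or Myc. The whole element TGACGTCA was in Btg2 (from -166 to -159) and Dusp1 (from -143 to -136), 2 of the 7, against 1.79% of all 32851 promoters of that length. The TGACG core, which the whole element contains, was in 4 of the 7 (Fos, Btg2, Junb and Dusp1) against 20.8% of all. In Fos it was found at -129 and at -66. Within this window the CArG box was in Zfp36 alone of the 7 (from -58 to -49), against 1.63% of all. The AP-1 site TGACTCA was in none of the 7, against 5.20% of all. The Ier3 window held none of these motifs. The GC box GGGCGG was in 6 of the 7 (35.7% of all) and the CCAAT box in 4 (37.4% of all). These matches describe letters and do not show that a factor binds. Elements farther than 250 bases before the start, in Fos or any other gene, were not searched and may be present.

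The question the comparisons address is whether either SIRT1 allele alters the hepatic RNA level of these genes on the fatty diet. No immediate early gene of the 10 passed the threshold of 0.05 on the adjusted p (limma with Benjamini-Hochberg adjustment over all genes tested) in any comparison. Over all genes the same threshold was passed by 2.82% for TAKI minus WT, 0.00490% (a single gene) for TEKI minus WT and 3.45% for TEKI minus TAKI. For each of the 10, the values of the genotypes overlapped in every comparison, while they did not overlap for 7.50%, 3.93% and 8.29% of all genes. Below an unadjusted p of 0.05 there was 1 of the 10 for TAKI minus WT, Dusp1, and 0 in the other comparisons, against 14.7% of all genes for TAKI minus WT, 11.6% for TEKI minus WT and 12.1% for TEKI minus TAKI. The data do show a large spread between mice of 1 genotype, which several of the genes shared.

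**Figure D1:**
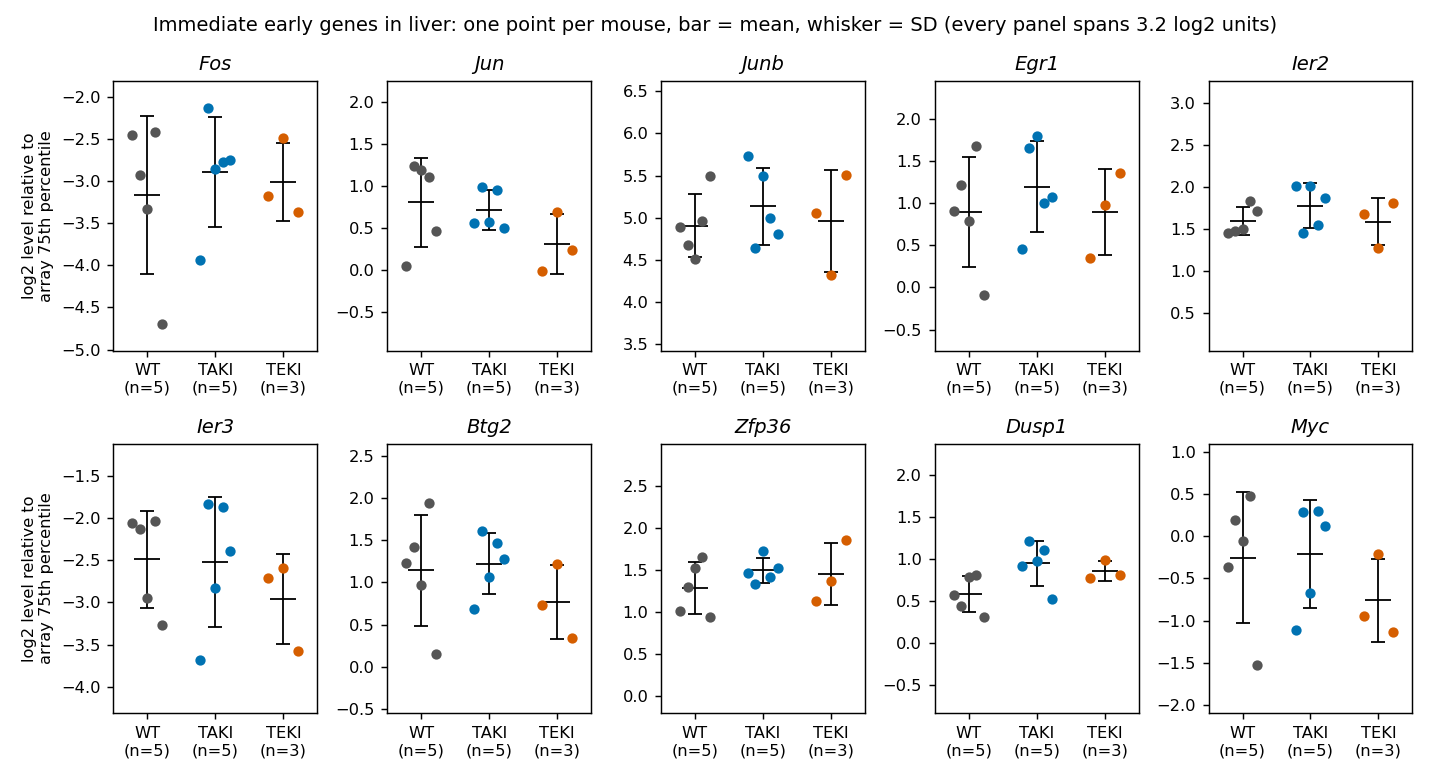
Log2 level relative to the array's 75th percentile (vertical axes) of the 10 immediate early genes in each mouse, by genotype (horizontal axes: WT n = 5, TAKI n = 5, TEKI n = 3). Points are mice, bars are means and whiskers are SD. The genotypes overlap in all 10 panels, and WT replicate 5 is the lowest point for Fos, Egr1, Btg2 and Myc.

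Fos encodes the partner of Jun proteins in the AP-1 transcription factor. Its levels in WT replicates 1 to 5 were -2.45, -2.93, -3.34, -2.42 and -4.69. In TAKI replicates 1 to 5 they were -3.93, -2.13, -2.86, -2.77 and -2.75, and in TEKI replicates 1 to 3 they were -3.18, -2.49 and -3.36. WT replicate 5 and TAKI replicate 1 were the lowest, and the WT values enclosed all those of TEKI. The lowest and highest mice differed 5.90-fold. The WT mean was -3.17 ± 0.93 (SD, n = 5), the TAKI mean -2.89 ± 0.65 (SD, n = 5) and the TEKI mean -3.01 ± 0.46 (SD, n = 3). TAKI minus WT was 0.28 ± 0.44 (SE, limma adjusted p = 0.847), and its 95% confidence interval runs from 0.623-fold to 2.36-fold, which includes a rise of 2-fold. TEKI minus WT was 0.16 ± 0.51 (SE, adjusted p = 0.945).

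Jun, the other arm of AP-1, is needed for hepatocyte proliferation. Its levels were 0.048, 1.23, 1.18, 1.10 and 0.46 in WT replicates 1 to 5, and 0.56, 0.99, 0.57, 0.95 and 0.50 in TAKI replicates 1 to 5. In TEKI replicates 1 to 3 they were -0.0055, 0.69 and 0.24. The lowest mice were TEKI replicate 1 and WT replicate 1, and 3 of the 5 WT mice were above every TEKI mouse. TEKI minus WT was -0.50 ± 0.28 (SE, limma adjusted p = 0.496), the smallest adjusted p of the 10 genes in that comparison. It was also the smallest for TEKI minus TAKI, at -0.41 ± 0.28 (SE, adjusted p = 0.618).

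Junb encodes an AP-1 subunit that can oppose Jun. Its brightest probe read 4.88, 4.68, 4.51, 4.96 and 5.50 in WT replicates 1 to 5, and 5.73, 4.64, 5.49, 5.00 and 4.80 in TAKI replicates 1 to 5. In TEKI replicates 1 to 3 it read 5.06, 4.32 and 5.51. TAKI replicate 1 and WT replicate 5, the lowest mice for Fos, were among the 4 highest here. The other Junb probe read 3.95 in WT replicate 5, the second lowest of the 13 after TEKI replicate 2 (3.82), and 4.43 in TAKI replicate 1. TAKI minus WT was 0.23 ± 0.28 (SE, limma adjusted p = 0.785) by the brightest probe and 0.24 ± 0.22 (SE) by the other.

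Egr1, a zinc finger factor induced by growth factors, read 0.91, 1.21, 0.79, 1.68 and -0.094 in WT replicates 1 to 5. It read 0.45, 1.66, 1.79, 1.00 and 1.08 in TAKI replicates 1 to 5, and 0.35, 0.97 and 1.36 in TEKI replicates 1 to 3. WT replicate 5 was again the lowest mouse. TAKI minus WT was 0.30 ± 0.34 (SE, limma adjusted p = 0.773) and TEKI minus WT was -0.0070 ± 0.40 (SE, adjusted p = 0.998).

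Myc drives ribosome production and growth. Its levels in WT replicates 1 to 5 were -0.37, 0.20, -0.051, 0.48 and -1.53, in TAKI replicates 1 to 5 they were -1.11, 0.28, -0.67, 0.30 and 0.13, and in TEKI replicates 1 to 3 they were -0.94, -0.20 and -1.13. WT replicate 5 was the lowest and WT replicate 4 the highest, a range of 4.01-fold within 1 genotype. TEKI had the lowest mean, -0.76 ± 0.49 (SD, n = 3), against a WT mean of -0.25 ± 0.78 (SD, n = 5) and a TAKI mean of -0.21 ± 0.64 (SD, n = 5). The TEKI minus WT difference of -0.51 ± 0.46 (SE, limma adjusted p = 0.706) was smaller than the SD in WT.

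Btg2, an antiproliferative gene that p53 can induce, read 1.23, 1.42, 0.97, 1.95 and 0.15 in WT replicates 1 to 5. It read 0.69, 1.61, 1.06, 1.47 and 1.28 in TAKI replicates 1 to 5, and 0.74, 1.22 and 0.35 in TEKI replicates 1 to 3. The order of the mice was close to that of Fos and Myc, with WT replicate 5 lowest and WT replicate 4 highest. TEKI minus TAKI was -0.46 ± 0.35 (SE, limma adjusted p = 0.673). Ier3, which acts in cell survival, read -2.06, -2.13, -2.95, -2.04 and -3.27 in WT replicates 1 to 5. It read -3.69, -1.83, -2.83, -1.86 and -2.39 in TAKI replicates 1 to 5, and -2.71, -2.59 and -3.57 in TEKI replicates 1 to 3. TAKI replicate 1 was the lowest mouse and TAKI replicate 2 the highest, a range of 3.63-fold. TEKI minus WT was -0.47 ± 0.45 (SE, limma adjusted p = 0.726).

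Dusp1 encodes a phosphatase that switches off MAP kinases. Its levels were 0.57, 0.44, 0.79, 0.81 and 0.32 in WT replicates 1 to 5, and 0.91, 1.22, 0.98, 1.10 and 0.52 in TAKI replicates 1 to 5. In TEKI replicates 1 to 3 they were 0.77, 0.99 and 0.81. Of the TAKI mice 4 were above every WT mouse, and the remaining one, TAKI replicate 5, was below 3 of them. TAKI minus WT was 0.36 ± 0.14 (SE), a 1.28-fold difference with a 95% confidence interval from 1.04-fold to 1.59-fold. Its unadjusted p was 0.0264 and its adjusted p 0.248 (limma), so it did not pass. TEKI minus WT was 0.27 ± 0.16 (SE, adjusted p = 0.531).

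Zfp36, which encodes a protein that speeds the decay of mRNAs with AU-rich elements, and Ier2, which encodes a nuclear protein, were with Dusp1 the least variable of the 10. Zfp36 ran from 0.94 to 1.65 in WT, from 1.34 to 1.73 in TAKI and from 1.13 to 1.85 in TEKI. Its TAKI minus WT difference was 0.21 ± 0.17 (SE, limma adjusted p = 0.651). Ier2 ran from 1.45 to 1.84 in WT, from 1.45 to 2.02 in TAKI and from 1.27 to 1.81 in TEKI. Its TAKI minus WT difference was 0.18 ± 0.15 (SE, limma adjusted p = 0.655).

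Seen together, 8 of the 10 differences were above 0 for TAKI minus WT, 4 for TEKI minus WT and 0 for TEKI minus TAKI. Of all 20389 genes tested, 10268, 12740 and 12351 were above 0 in the same order. The medians of the 10 were 0.20, -0.0075 and -0.25, beside medians over all genes tested of 0.0022, 0.072 and 0.064. TEKI minus TAKI shares its TAKI arrays with the first comparison, so these counts are not separate evidence, and the genes share mice as described below. When all 17 probes were tested singly, 0 passed in any comparison, with a lowest adjusted p of 0.277 (limma).

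**Figure D2:**
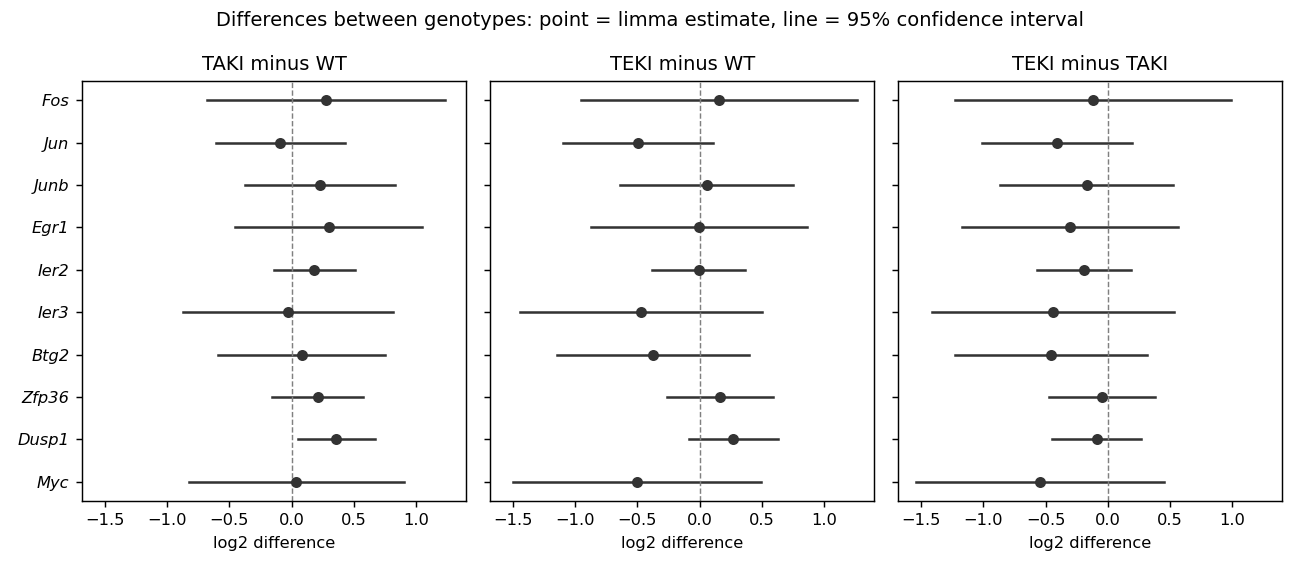
Log2 differences between genotypes (horizontal axes) for the 10 immediate early genes (vertical axis), as limma estimates with 95% confidence intervals, over the 13 mice. All intervals include 0 except that of Dusp1 for TAKI minus WT (0.050 to 0.67), which did not pass after adjustment.

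The spread between mice of 1 genotype was larger than that of most genes. Over the 15485 genes well above background on all arrays, the median SD within genotypes was 0.218 on the log2 scale. All 10 immediate early genes were above it, with a median of 0.489. Fos had an SD of 0.75, larger than that of 97.2% of these genes, followed by Myc (0.67, 95.5%), Ier3 (0.66, 95.1%), Egr1 (0.58, 92.2%) and Btg2 (0.52, 88.3%). Junb (0.46, 84.3%) and Jun (0.40, 78.1%) came next. Zfp36 (0.27, 62.0%), Ier2 (0.23, 54.3%) and Dusp1 (0.22, 51.0%) were near the middle. Among genes of like level, within 0.5 of the gene's own mean, the percentages were between 66.4% (Dusp1) and 96.6% (Egr1). With a background correction by normexp, which lifts dim probes, the SD of Fos was 0.34 and that of Ier3 0.37, while those of Myc (0.57), Egr1 (0.55) and Btg2 (0.50) moved less.

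The spot-to-spot error within an array can be read for Fos, Jun and Myc, whose brightest probes were each printed on 10 spots. Their spots had a median SD of 0.139 for Fos, 0.058 for Jun and 0.065 for Myc on the log2 scale. This is spot-to-spot error only and leaves out extraction, labelling and hybridisation. The dimmest Fos reading, in WT replicate 5, had a mean intensity of 26.1 ± 4.79 (SD, 10 spots), against 147 ± 6.06 (SD, 10 spots) in WT replicate 4. The remaining 7 genes were read from 1 spot per probe.

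Some mice were low or high for several of the 10 genes at once. With 1 array per mouse, the mouse, its RNA and its array cannot be told apart. Like counts over all genes are not given here. WT replicate 5 had the lowest value of the 13 for 6 of the 10 genes, and its mean over the 10 was -0.58 relative to the WT mean. WT replicate 4 was above the WT mean for 10 of the 10 genes, with a mean of 0.47. TAKI replicate 1 was among the lowest 3 mice for 5 genes and the highest mouse for 2, Junb and Ier2. TAKI replicate 2 was the highest mouse for 3 genes, with a mean of 0.39. Averaged over the 10 genes, TAKI lay at 0.16 ± 0.23 (SD, n = 5) and TEKI at -0.12 ± 0.13 (SD, n = 3) relative to WT, whose own SD was 0.38 (n = 5). The difference between these means was not tested. WT replicate 5 was the only WT mouse on the slide that held TEKI, and whether slide has a part in its values was not tested.

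**Figure D3:**
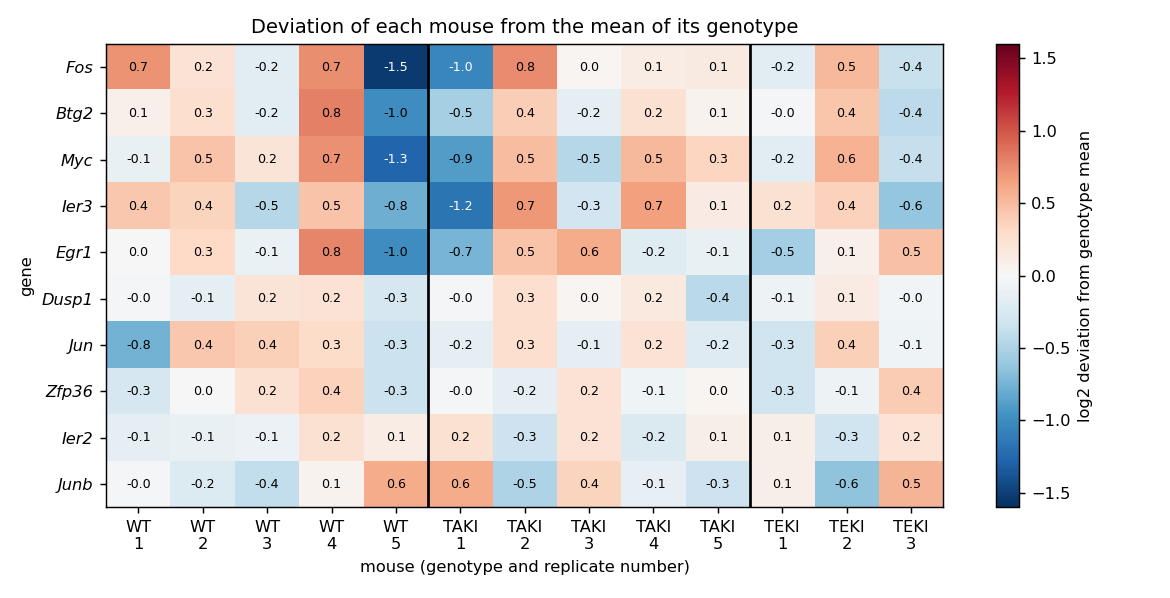
Deviation of each mouse (horizontal axis) from the mean of its genotype for the 10 immediate early genes (vertical axis), in log2 units, with blue below and red above the mean. WT replicate 5 and TAKI replicate 1 are low for Fos, Btg2, Myc, Ier3 and Egr1, and in both the brightest probe of Junb is high.

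After the genotype means were removed, 4 genes rose and fell together over the 13 mice. Pearson's r was 0.93 for Btg2 with Myc, 0.92 for Fos with Btg2, 0.86 for Fos with Myc, 0.85 for Fos with Ier3, 0.85 for Ier3 with Btg2 and 0.83 for Ier3 with Myc. These correlations describe 13 arrays that share the scaling of each array and its RNA, and carry no p. Of the 45 pairs of the 10 genes, 30 were above 0, with a median r of 0.33. An r over 0.6 was reached by 12 pairs (26.7%), against 7.14% of all pairs of the genes well above background, whose median was 0.013. Without WT replicate 5 and TAKI replicate 1, the mice farthest from the Fos median, the median r of the 45 pairs was 0.22, with 27 above 0 and 9 over 0.6, and within slides it was 0.35, with 28 above 0 and 10 over 0.6. Without these mice, r over the other 11 was 0.84 for Btg2 with Myc, 0.80 for Fos with Btg2 and 0.76 for Fos with Ier3. For Fos with Myc it was 0.52. Within slides (11 arrays, after the means of the 4 slides with at least 2 arrays of a genotype were removed) these pairs gave 0.93, 0.81, 0.85 and 0.76. WT replicates 3 and 5, each the only array of its genotype on its slide, drop out there. The within-slide values thus leave out WT replicate 5 as well, and keep TAKI replicate 1.

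Egr1 joined the 4 less firmly. Its r with Fos was 0.75, with Btg2 0.67, with Myc 0.61 and with Ier3 0.46. Without WT replicate 5 and TAKI replicate 1 these were 0.29, 0.22, -0.0027 and -0.18, so they rest in large part on those 2 mice. Within slides, where WT replicate 5 is left out too, they were 0.50, 0.36, 0.32 and 0.16. Egr1 with Zfp36 (r = 0.66) held 0.64 without the 2 mice. Dusp1 had r between 0.33 and 0.53 with Fos, Btg2, Myc, Ier3, Egr1 and Jun, and Jun was closest to Myc (r = 0.64).

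**Figure D4:**
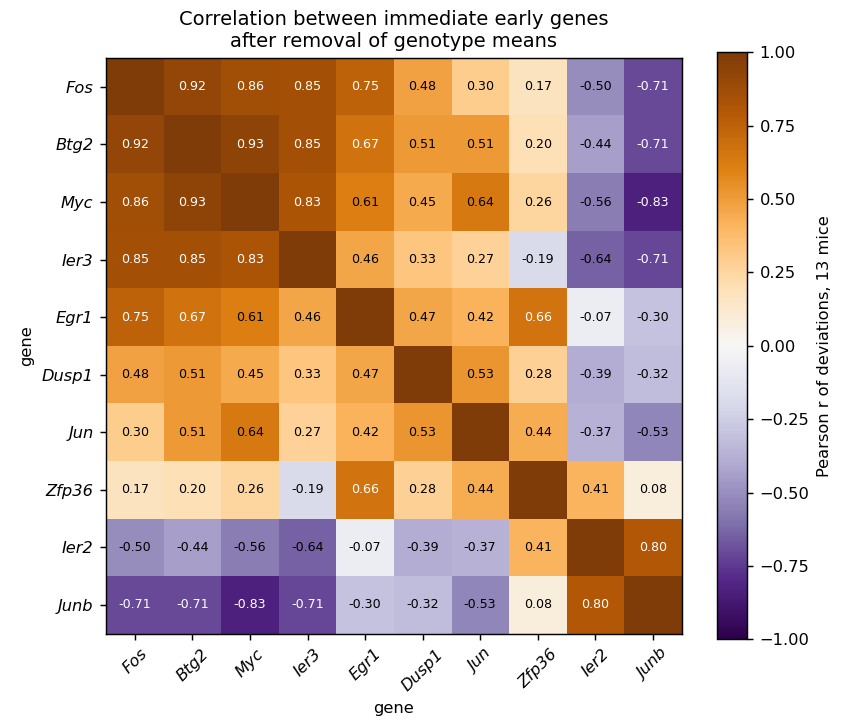
Pearson's r between the 10 immediate early genes (both axes) over 13 mice after removal of genotype means, each gene by its brightest probe. Fos, Btg2, Myc and Ier3 form a block with r from 0.83 to 0.93, and Junb and Ier2 have negative r with each of the 4.

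The brightest probes of Junb and Ier2 ran the opposite way to the 4 genes, and their other probes did not follow them over the 13 mice. By the brightest probes, Junb had r = -0.83 with Myc and -0.71 with Fos, Ier2 had r = -0.56 with Myc and -0.50 with Fos, and Junb and Ier2 had r = 0.80 with each other. The other Junb probe had r = 0.29 with Myc and 0.35 with Fos over the 13 mice. Its r with Fos was -0.42 within slides (also without WT replicate 5) and -0.31 without WT replicate 5 and TAKI replicate 1. Its sign thus rests on those 2 mice. The brightest Junb probe had r = -0.42 with Fos without them. The other Ier2 probe had r = -0.15 with Myc and -0.048 with Fos, and with Fos 0.36 within slides and 0.13 without the 2 mice. The 2 probes of a gene were almost unrelated, with r = 0.12 for Junb and 0.020 for Ier2. Over the 5135 genes with at least 2 probes well above background on all arrays, the median r of the 2 brightest probes was 0.55, and 20.3% of genes had less than Junb and 15.6% less than Ier2.

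Both Junb probes were bright, between 10414 and 41533 in intensity, and lie on chromosome 8 at chr8:83563059-83563118 and chr8:83563097-83563156 (mm7, minus strand, as the files give them). The stretch that both probes hold is shown because probes that overlap this much still disagreed.
Bases shared by the Junb probes: ttcgtgtctaaagtctatttta
These 22 bases are the longest run common to them. The brightest Ier2 probe, at chr8:83243584-83243618 (mm7), is placed by the files over 35 bases only, and its other probe over 59 bases. The other probes of Btg2 had r of 0.95 and 0.96 with its brightest probe, and 1 of the other Myc probes had r = 0.99 with the 10-spot probe. The remaining Myc probe, the dimmest (intensity 42.6 to 210), had r = 0.30, and the probes of Zfp36 had r = 0.55. The shared movement of Fos, Btg2 and Myc was thus seen by 6 probes of these 3 genes.

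**Figure D5:**
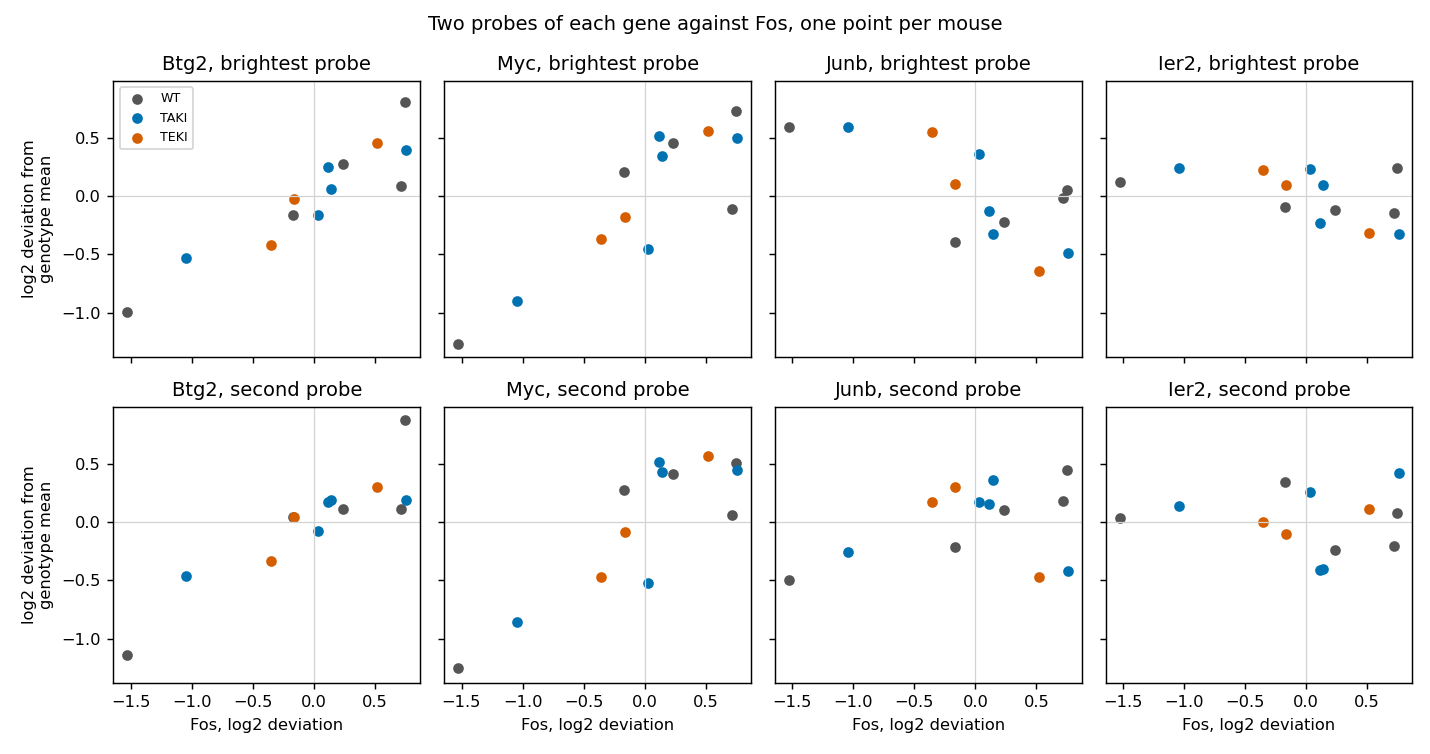
Log2 deviation from the genotype mean of the 2 brightest probes of Btg2, Myc, Junb and Ier2 (vertical axes) against that of Fos (horizontal axes), 1 point per mouse, coloured by genotype. Both probes of Btg2 and of Myc rise with Fos, whereas the brightest Junb probe falls as Fos rises (r = -0.71) and the other Junb probe has r = 0.35 with all 13 mice and -0.31 without the 2 mice of lowest Fos.

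Genes outside the 10 with the most similar pattern were ranked by r with the mean deviation of the 10, over 15475 genes and 13 mice. The highest were Fam126a (r = 0.95), Rsad2, an antiviral gene of the interferon response (0.94), Zfp532 (0.92), Get1 (0.91), Chmp2b, a subunit of a membrane-remodelling complex (0.90), and Armc9 (0.90). The lowest were Cops3, a subunit of the COP9 signalosome (-0.93), Dmac2 (-0.93) and Nags, which makes the activator of the urea cycle (-0.92). With quantile normalization Fam126a kept the highest r, while Zfp532 was at rank 592. For Fos alone, Clmp (0.96) and Aig1 (0.96) were among the highest. With quantile normalization they were at ranks 323 and 783. For Egr1 they were LOC434635 (0.91), Pros1, the anticoagulant protein S (0.89), and Trib3, a pseudokinase of the stress response (0.89). For Myc they were Chmp2b (0.98), Pls1, an actin-bundling protein (0.97), and Morc4 (0.97). All these r are over 13 mice and may rest in part on WT replicate 5 and TAKI replicate 1.

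Of 49 other immediate early genes, listed with earlier results of these data known, 46 could be tested and 0 passed in any comparison. Over all genes the shares that passed were 2.82%, 0.00490% and 3.45%, so 0 of 46 is near them. The median differences of the 46 were 0.041 for TAKI minus WT, -0.16 for TEKI minus WT and -0.14 for TEKI minus TAKI. The genes of smallest p, none of which passed, were Jund (-0.32, adjusted p = 0.332) and Dusp6 (-0.30, 0.402) for TAKI minus WT, and Plk2 (-0.68, 0.391) and Gadd45a (-0.85, 0.433) for TEKI minus WT, by limma. For TEKI minus TAKI they were Dusp4 (-0.57, adjusted p = 0.169) and Id1 (-1.13, 0.178), by limma. Over the 13 mice, 35 of the 44 genes well above background on all arrays had r above 0 with the mean of the 10, against 41.8% of all genes. An r over 0.6 was reached by 8 of them (18.2%, against 9.20% of all genes). These were Atf3, a stress-induced factor (0.83), Klf6 (0.73), Ccn2, a matrix protein that signals through integrins (0.73), Egr2 (0.70), Rhob (0.68), Nfkbiz (0.62), Dusp4 (0.62) and Sgk1 (0.61). The mean of the other immediate early genes had r = 0.92 with the mean of the 10. These r too may rest in part on WT replicate 5 and TAKI replicate 1.

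Genes upstream and downstream of the class gave 0 calls as well. In lists this short that is near the shares over all genes (2.82%, 0.00490% and 3.45%). Of 31 upstream kinases, receptors and transcription factors, 30 were tested, with median differences of -0.100 for TAKI against WT, -0.015 for TEKI against WT and 0.036 for TEKI against TAKI. The coactivator Crebbp was among the 2 genes of smallest p for TAKI minus WT (-0.21, limma adjusted p = 0.375) and for TEKI minus WT (-0.26, 0.429). The SRF partner Elk4 (0.75, limma adjusted p = 0.201) and Mrtfb (0.28, 0.529) had the smallest p for TEKI minus TAKI. In the Myc network and its targets, all 24 were tested, with medians of -0.078, -0.11 and -0.030. Smallest in p were Fbl, a nucleolar methyltransferase (-0.30, limma adjusted p = 0.148), and Mxd1 (-0.28, 0.370) for TAKI minus WT, Nop58 (-0.28, 0.429) and Npm1 (-0.25, 0.439) for TEKI minus WT, and Mxd4 (0.25, 0.439) and Mnt (-0.34, 0.476) for TEKI minus TAKI.

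All 14 listed AP-1 targets were tested, with medians of 0.045, -0.13 and -0.23 in the same order. Mmp9, a matrix metalloproteinase, came closest for TEKI minus TAKI (1.48 ± 0.40, SE, limma adjusted p = 0.0777) and for TEKI minus WT (1.23, adjusted p = 0.390), with Vegfa (-0.35, 0.492) next in the former and Plau (0.50, 0.608), well above background on 3 of 5 WT and 2 of 3 TEKI arrays, in the latter. Il6 (0.48, limma adjusted p = 0.597) and Vegfa (0.20, 0.645) had the smallest p for TAKI minus WT. Of 12 mRNAs with AU-rich elements bound by ZFP36, 10 were tested, Ier3 among them, with medians of 0.14, -0.15 and -0.24. Il10 had the smallest p for TAKI minus WT (0.73, limma adjusted p = 0.202) and for TEKI minus WT (0.45, 0.583), with Il6 next in both (0.48, 0.597 and 0.49, 0.661). Il10 was well above background on 1 of 5 WT, 5 of 5 TAKI and 1 of 3 TEKI arrays, so it was tested only through TAKI and these values are set against background. Vegfa (-0.35, 0.492) and Ccl3 (-0.95, 0.669, well above background on 2 of 3 TEKI arrays) had it for TEKI minus TAKI.

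Markers of other liver cells moved with the 10 genes from mouse to mouse to differing degrees. The mean log2 level of the 10 stellate cell markers, all well above background on 13 arrays, had r = 0.68 with the mean of the 10 immediate early genes, and ran from 1.23 to 1.89 in WT, from 0.93 to 1.88 in TAKI and from 1.20 to 1.87 in TEKI. That of the hepatocyte markers (7 of 8 tested) had r = -0.60, and ran from 6.66 to 7.05 in WT, from 6.61 to 7.02 in TAKI and from 6.64 to 7.22 in TEKI. Neutrophil markers (9 of 10 tested) had r = 0.58, and ran from -4.64 to -2.59 in WT, from -4.36 to -3.28 in TAKI and from -4.18 to -2.34 in TEKI. Of these, Ngp, Camp and Elane were well above background on 5, 4 and 3 arrays only, and S100a8 and S100a9 on all 13. Red blood cell markers (3 of 5 tested) had r = -0.52, cholangiocyte markers (7 of 7) 0.43, Kupffer cell and macrophage markers (11 of 11) 0.39, endothelial markers (10 of 10) 0.27 and pancreatic acinar markers (9 of 11) 0.20. The marker correlations are over all 13 mice and may rest in part on WT replicate 5 and TAKI replicate 1. The part of any of these cells in the shared movement was not tested. Between genotypes, 2 of the 12 lymphocyte markers passed for TAKI minus WT, both higher, Cd2 among them (1.05, limma adjusted p = 0.00308). The mean of the 12 lymphocyte markers had r = -0.24 with that of the 10 genes. Of the 9 acinar markers tested, 1 passed as higher and 1 as lower for TAKI minus WT, and 1 as higher for TEKI minus TAKI. Over all genes 2.82% and 3.45% passed in these comparisons. No marker of the other cell types passed.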

How the data were processed

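Total liver RNA of 13 mice was measured on Agilent 1-colour whole-genome arrays, 1 mouse per array. The deposited values are spot intensities on a linear scale, background-subtracted by Agilent Feature Extraction 9.5 per the file headers and the submitters' processing notes, with no scaling between arrays. The labels state neither the hour nor the manner of taking the liver. Unflagged spots of a probe were averaged, log2 was taken and each array was scaled to its own 75th percentile, with no array left out. Per gene the brightest probe was tested if well above background on at least 3 arrays. limma 3.58.1 (R 4.3.3) fitted the 3 genotypes over all arrays in 1 model (10 residual degrees of freedom), with Benjamini-Hochberg adjustment and a threshold of 0.05. Simulated data with known changes were used to check the model. Files were read with pandas 2.3.3 and numpy 2.4.6 (Python 3.11.15), and figures drawn with matplotlib 3.10.9.

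The members and gene lists were chosen with earlier results of these data known. All 10 members are named. From each other list, the genes past the threshold or, where none passed, the 2 of smallest p are named, and the genes of most similar pattern follow ranks of r. A few genes named by these rules are not reported here. The alternatives tried were other scalings, background correction, filters, probe choices, blocks, array weights and leaving out each mouse. With 3 to 5 arrays in a group, their number limits the precision.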

Additional observations from a re-analysis of the deposited data

How the results depend on the processing

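None of the 10 immediate early genes passed the threshold of 0.05 under any alternative tried, with a lowest limma adjusted p of 0.11 for TAKI minus WT, 0.265 for TEKI minus WT and 0.339 for TEKI minus TAKI. Of the other immediate early genes, 1 passed for TEKI minus TAKI with median scaling and with array weights (Id1, -1.41 and -1.48), and 1 with normexp correction and without TEKI replicate 3 (Arc, 0.96 and 1.56), so without that replicate the count goes from 0 to 1.

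Signs of differences that did not pass changed as follows. The cause was not tested. For TAKI minus WT, normexp gave -0.055 for Fos and -0.019 for Myc, median scaling -0.071 for Btg2 and -0.11 for Myc, and array weights -0.17 for Btg2 and -0.13 for Myc. For TEKI minus WT, median scaling gave -0.27 for Fos, -0.37 for Junb, -0.26 for Zfp36 and -0.16 for Dusp1. It moved the median of all genes to -0.36 for TEKI minus WT, -0.15 for TAKI minus WT and -0.21 for TEKI minus TAKI. Quantile normalization gave -0.42 for Fos, 0.0017 for Egr1 and 0.018 for Ier2, array weights -0.20 for Fos, and the mean of the probes -0.050 for Junb and 0.11 for Ier2. Slide as a random block gave 0.054 for Egr1. Slide as a fixed block, which compares TEKI with WT replicate 5 alone, gave -0.54 for Junb, 0.99 for Egr1, 0.31 for Ier3, 0.62 for Btg2 and 0.77 for Myc. For TEKI minus TAKI, normexp gave 0.15 for Fos and 0.10 for Ier3, the mean of the probes 0.040 for Ier2, and array weights 0.073 for Zfp36 and 0.018 for Dusp1.

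Leaving out 1 mouse at a time, TAKI minus WT ran from -0.11 to 0.54 for Fos, -0.28 to 0.017 for Jun, -0.22 to 0.26 for Ier3, -0.17 to 0.28 for Btg2 and -0.28 to 0.26 for Myc. TEKI minus WT ran from -0.23 to 0.34 for Fos, -0.22 to 0.38 for Junb, -0.26 to 0.27 for Egr1, -0.12 to 0.15 for Ier2 and -0.034 to 0.33 for Zfp36. TEKI minus TAKI ran from -0.38 to 0.068 for Fos, -0.44 to 0.15 for Junb and -0.24 to 0.12 for Zfp36.

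Counts over all genes depended on the setting. For TAKI minus WT, 575 became 998 with median scaling, 879 with quantile normalization, 253 with probes well above background on all 13 arrays, 1333 with only the 2 groups compared, 2250 with array weights, and 295 to 1312 without 1 mouse (348 without WT replicate 2, 353, 375 and 295 without TAKI replicates 3, 4 and 5, and 1312 without TEKI replicate 1). For TEKI minus WT, 1 became 2 with median scaling, no filter or array weights, 5 with quantile normalization, 0 with normexp, the filter on all 13 arrays or slide as a fixed block, and 1 to 93 without 1 mouse (17 without WT replicate 5, and 3, 93 and 4 without TEKI replicates 1, 2 and 3). For TEKI minus TAKI, 704 became 1122 with quantile normalization, 4186 with normexp, 294 with the filter on all 13 arrays, and 408 (without TEKI replicate 3) to 1099 (without TEKI replicate 1) without 1 mouse.

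Whether replicate numbers pair the mice was not settled. Over 11 same-numbered pairs the correlation of deviations ran from -0.23 to 0.32, with a median of 0.098. Differently numbered pairs of other genotypes had a median of -0.024. For 2 of 13 arrays the closest array of another genotype had their own number. With the replicate block the count for TAKI minus WT was 343, 0 of the 10 genes passed, and Ier2 gave 0.029 for TEKI minus WT. The correlations by the other probe of Junb and Ier2, within slides and without 2 mice were chosen after seeing the data.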
